A study of Mus musculus with 12 samples.

Results

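Aminoacyl-tRNA synthetases are the enzymes that load each amino acid onto its matching tRNA, and their mRNAs were measured by RNA-seq in stimulated and fresh CD8 T cells of Otub1 knockout (KO) and wild-type (WT) mice. The members were taken from a list of 36 nuclear genes, 20 for the cytosolic enzymes and 16, with names ending in 2, for enzymes of the mitochondrion. All 36 occur in each of the 12 count tables, which list 23420 genes, and all 36 were among the 12759 genes with enough counts to be tested.

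The groups were stimulated KO, fresh KO, stimulated WT and fresh WT, with 3 libraries each. Per the series' design text, the cells were naive CD8 T cells from spleens of OT-I mice, which carry a transgenic T cell receptor for an ovalbumin peptide, so both genotypes share that receptor. The KO mice are given as OTUB1-CD4Cre-OT-I in that text and as OTUB1-DKO in the sample labels, and the controls as WT. A Cre driven by Cd4 acts during thymic development, before CD8 T cells mature, and so removes the gene from the T cell lineage and not from the rest of the animal. Mice were C57BL/6 and 6 to 8 weeks old. Stimulated cells spent 24 h on plate-bound antibodies to CD3 and CD28, each at 1 µg/ml, and fresh cells had no culture. No group was cultured without the antibodies, so effects of culture and of receptor stimulation cannot be told apart. Below, a change with stimulation means stimulated over fresh cells. OTUB1 is a deubiquitinase. The sample labels call the cell type splenic DCs, against the design text. The summed level of 6 CD8 T cell genes was 1473 to 1664 CPM (counts scaled to a common library size, per 1e+06) in stimulated KO libraries, 5015 to 5286 CPM in fresh KO, 1840 to 1968 CPM in stimulated WT and 4887 to 5097 CPM in fresh WT. Nothing in the labels says whether the 3 libraries of a group came from separate mice, so the tests measure the spread between these libraries.

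In a cell, cytosolic synthetases supply the ribosomes that read nuclear mRNAs, and mitochondrial synthetases supply those that read the few mRNAs of the mitochondrial genome. Several cytosolic enzymes sit together in the multisynthetase complex, held by scaffold proteins. When a tRNA stays uncharged, the kinase GCN2 phosphorylates eIF2 and the transcription factor ATF4 is translated. Amino acid response genes that ATF4 induces, together with C/EBP proteins, include transporters, Asns and cytosolic synthetases. Naive T cells are small and make little protein, and growth after receptor engagement requires amino acid uptake and protein synthesis.

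Promoters of 5 synthetase genes are shown because they hold letters that ATF4 partners or MYC-family proteins are known to bind, and because these genes lie at opposite ends of the stimulation response described further on. Each is 300 bases, 250 before to 50 from the start site, in gene direction, from RefSeq (GRCm38.p6). Capitals mark the E-box CACGTG and the C/EBP-ATF element TGATGNAAN, searched on both strands. The Aars promoter, chr8:111033592-111033891 on the plus strand, holds 1 E-box and 2 C/EBP-ATF elements. That of Iars is chr13:49681880-49682179 on the plus strand, that of Gars chr6:55037751-55038050 on the plus strand, that of Yars chr4:129189653-129189952 on the plus strand and that of Ears2 chr7:122067037-122067336 on the minus strand.
Aars: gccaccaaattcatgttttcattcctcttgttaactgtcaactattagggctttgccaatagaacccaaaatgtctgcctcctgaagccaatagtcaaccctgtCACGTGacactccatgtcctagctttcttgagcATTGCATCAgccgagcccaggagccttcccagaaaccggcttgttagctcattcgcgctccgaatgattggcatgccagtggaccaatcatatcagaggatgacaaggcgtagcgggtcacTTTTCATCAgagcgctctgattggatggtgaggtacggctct
Iars: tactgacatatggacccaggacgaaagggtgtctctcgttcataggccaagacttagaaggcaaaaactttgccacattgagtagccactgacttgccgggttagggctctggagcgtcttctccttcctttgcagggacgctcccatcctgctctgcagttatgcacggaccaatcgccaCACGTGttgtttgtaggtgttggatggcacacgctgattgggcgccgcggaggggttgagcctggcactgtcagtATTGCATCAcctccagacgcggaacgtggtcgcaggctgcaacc
Gars: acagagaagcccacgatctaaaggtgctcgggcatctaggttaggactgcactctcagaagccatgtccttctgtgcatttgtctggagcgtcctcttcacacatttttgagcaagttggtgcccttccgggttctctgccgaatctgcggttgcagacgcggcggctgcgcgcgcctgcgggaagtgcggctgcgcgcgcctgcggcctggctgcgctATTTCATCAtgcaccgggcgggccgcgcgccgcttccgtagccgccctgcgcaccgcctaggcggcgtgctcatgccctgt
Yars: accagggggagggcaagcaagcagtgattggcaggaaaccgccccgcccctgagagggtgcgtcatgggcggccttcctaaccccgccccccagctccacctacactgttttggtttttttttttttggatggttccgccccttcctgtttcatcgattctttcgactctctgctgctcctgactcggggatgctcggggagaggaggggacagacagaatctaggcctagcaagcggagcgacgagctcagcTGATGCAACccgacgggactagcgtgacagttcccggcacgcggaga
Ears2: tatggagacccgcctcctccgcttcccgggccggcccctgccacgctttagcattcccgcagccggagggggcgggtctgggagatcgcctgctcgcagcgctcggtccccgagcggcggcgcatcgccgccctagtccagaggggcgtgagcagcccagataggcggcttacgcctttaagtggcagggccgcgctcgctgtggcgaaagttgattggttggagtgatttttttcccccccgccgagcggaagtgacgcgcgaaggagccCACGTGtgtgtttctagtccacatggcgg

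RefSeq promoters of 27 of the 36 genes were searched, 28 promoters in all, and those of Cars, Hars, Lars, Nars, Rars, Vars, Wars, Hars2 and Pars2 were not. The C/EBP-ATF element was present in 5 of 13 cytosolic promoters (38.5%), those of Aars, Iars, Gars, Yars and Tars, and in 0 of 15 mitochondrial promoters. Among all 32851 promoters of the same length, 3.95% held it. ATTGCATCA, a single form of the same element read on the opposite strand, was in the Aars and Iars promoters, against 0.192% of all promoters. The E-box was present in 4 of 13 cytosolic promoters (30.8%), those of Farsb, Aars, Iars and Tars, and in 1 of 15 mitochondrial ones (6.67%), that of Ears2, against 7.15% of all. The cAMP response element TGACGTCA, which does not overlap these motifs, was in 0 of the 28 and in 1.79% of all. A match of letters is a description of the sequence and does not show that a protein binds there.

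Libraries held 15064488 to 25920035 counts assigned to genes, and the lowest raw count of any synthetase in any library was 118. Otub1 itself, given first as a check of the labels, averaged 14.8 ± 1.26 CPM in stimulated KO and 94.0 ± 7.48 CPM in stimulated WT, and 27.6 ± 1.91 CPM in fresh KO and 62.8 ± 15.4 CPM in fresh WT (SD, n = 3 each). KO and WT libraries did not overlap, though reads remained in the KO. Reads of Y-linked genes were present in 3 libraries, 1 each of stimulated KO, fresh KO and fresh WT, so each of these groups mixes libraries with and without them. Levels are relative to all gene counts in a library: a change in RNA per cell that touches all genes equally leaves no trace in CPM, and in bulk RNA fewer cells of a type and less RNA per cell cannot be told apart.

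With stimulation every cytosolic synthetase gene rose, while the mitochondrial ones divided. In WT cells 28 of the 36 genes rose, 4 fell and 4 did not pass the test (edgeR quasi-likelihood test, Benjamini-Hochberg adjusted p under 0.05 over all tested genes). Across all tested genes 40.8% rose and 41.4% fell, so the share of synthetases that rose stood above the background and the share that fell below it. Their median log2 fold change was 1.22, against -0.03 over all tested genes. All 20 cytosolic genes rose, 16 of them at least 2-fold, with a median of 2.00 on the log2 scale. Of the 16 mitochondrial genes 8 rose, 3 of them at least 2-fold, 4 fell, and the median was 0.17. The mitochondrial share that rose was not far above that of all tested genes, and the share that fell was below it. The excess of rises over the background thus lay mainly with the cytosolic genes.

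KO cells divided in a like way. With stimulation 28 synthetase genes rose and 3 fell in KO cells, where 41.7% of all tested genes rose and 42.2% fell. The 20 cytosolic genes rose, with a median log2 fold change of 1.94, and the mitochondrial ones divided into 8 that rose, 3 that fell and 5 that passed in neither direction, with a median of 0.13. As in WT, the mitochondrial share that rose was not far above that of all tested genes, and the share that fell was below it.

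**Figure D1:**
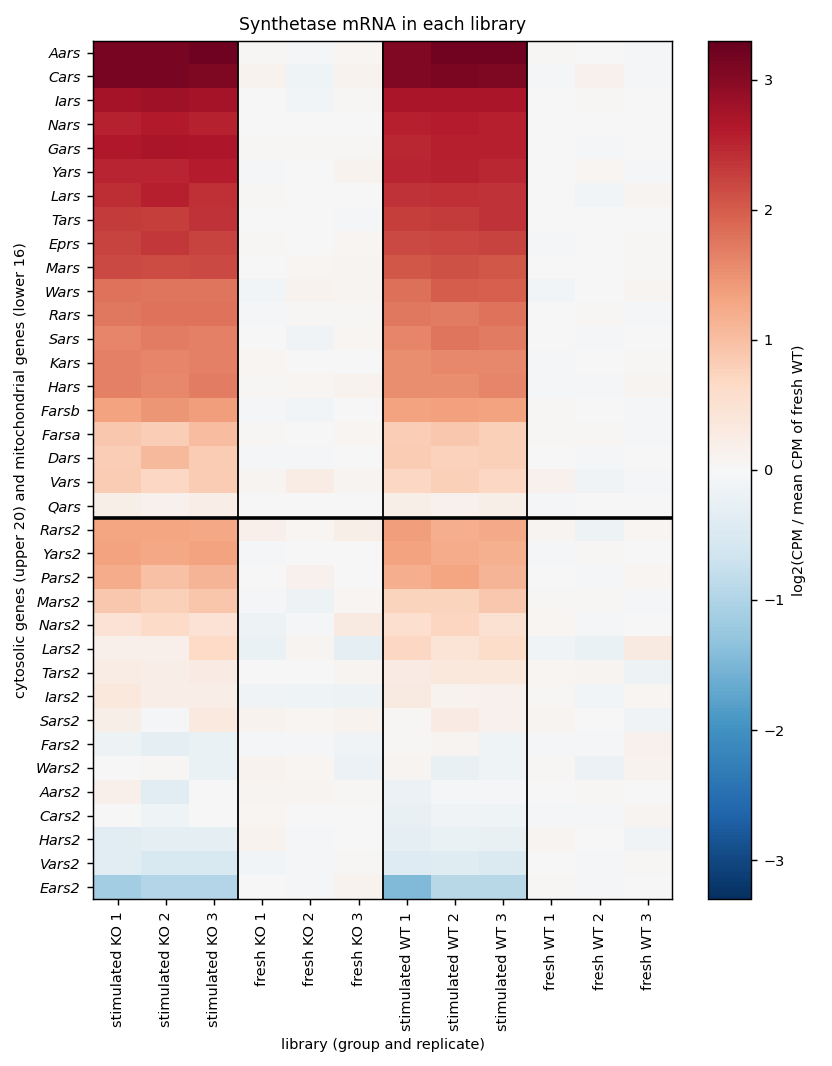
Level of each synthetase mRNA in each of the 12 libraries, as log2 of its CPM over the mean CPM of the 3 fresh WT libraries; rows are genes, with the 20 cytosolic ones above the line, and columns are libraries by group. Red fills the stimulated columns of nearly all cytosolic rows, KO and WT alike, while the mitochondrial rows run from red at Rars2 to blue at Ears2.

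Summed over genes, the cytosolic synthetases made up 7863 ± 86.5 CPM in stimulated KO and 2113 ± 17.6 CPM in fresh KO, a ratio of 3.72. They made up 7614 ± 138 CPM in stimulated WT and 2069 ± 25 CPM in fresh WT, a ratio of 3.68 (SD, n = 3 each). The mitochondrial ones summed to 819 ± 53.7 CPM in stimulated KO and 661 ± 21 CPM in fresh KO, and to 860 ± 26.4 CPM in stimulated WT and 682 ± 39.1 CPM in fresh WT. Their ratios were thus 1.24 in KO and 1.26 in WT. All 36 together took 0.868% of gene counts in stimulated KO against 0.277% in fresh KO, and 0.847% in stimulated WT against 0.275% in fresh WT. In these sums the balance between the compartments moved with stimulation: cytosolic over mitochondrial CPM was 9.64 ± 0.675 in stimulated KO and 3.2 ± 0.115 in fresh KO, and 8.87 ± 0.427 in stimulated WT and 3.04 ± 0.161 in fresh WT. Gars and Kars, which serve both compartments, were counted as cytosolic only. Lars2 was a large part of the mitochondrial sums, averaging 248 CPM in stimulated KO and 176 CPM in fresh KO. In WT it averaged 290 CPM in stimulated cells and 194 CPM in fresh cells.

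The highest stimulation response belonged to Aars, the alanine enzyme, which stands 313th of the 12759 tested genes by log2 fold change in WT. Its level was 508, 501 and 531 CPM in stimulated KO against 59.3, 55.2 and 60.5 CPM in fresh KO. In WT it was 481, 518 and 526 CPM in stimulated cells against 58.9, 57.7 and 55.7 CPM in fresh cells, an 8.86-fold change (log2 3.15 ± 0.05 SE, adjusted p = 3.27e-16). Stimulated and fresh libraries were far apart, and KO and WT libraries of the same state overlapped. Of the annotated exon bases of Aars, 15.1% are shared with other genes, chiefly Exosc6 on the same strand, and how the counting split such reads is not known.

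Cars, the cysteine enzyme, was lower in level but changed about as much, by 8.40-fold in both genotypes (log2 3.07). It had 234, 235 and 229 CPM in stimulated KO against 29.2, 24.6 and 29.3 CPM in fresh KO, and 222, 233 and 226 CPM in stimulated WT against 25.7, 29.5 and 25.5 CPM in fresh WT. Iars, which charges isoleucine within the multisynthetase complex, had 610, 639 and 618 CPM in stimulated KO against 93.1, 85.9 and 93.7 CPM in fresh KO. Its WT values were 594, 595 and 595 CPM stimulated and 91.2, 93.2 and 90.2 CPM fresh (log2 fold change 2.70 ± 0.05 SE). For both genes each stimulated library lay above each fresh one by a wide margin, and the libraries of a group lay close together.

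Nars, Gars and Yars charge asparagine, glycine and tyrosine. Nars had 667, 706 and 664 CPM in stimulated KO against 116, 115 and 115 CPM in fresh KO, and 677, 688 and 680 CPM in stimulated WT against 116, 116 and 113 CPM in fresh WT. Gars, whose single gene supplies glycyl-tRNA synthetase to both the cytosol and the mitochondrion, had 718, 745 and 723 CPM in stimulated KO against 117, 117 and 117 CPM in fresh KO. In WT it had 638, 679 and 673 CPM stimulated and 115, 112 and 116 CPM fresh. The fresh libraries of Gars lay within a few CPM of one another, and every stimulated library was several times higher. Yars had 254, 254 and 267 CPM in stimulated KO against 42.5, 45 and 48 CPM in fresh KO, and 253, 256 and 248 CPM in stimulated WT against 43.9, 46.6 and 42.6 CPM in fresh WT. The log2 fold changes in WT were 2.56 for Nars, 2.53 for Gars and 2.50 for Yars.

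**Figure D2:**
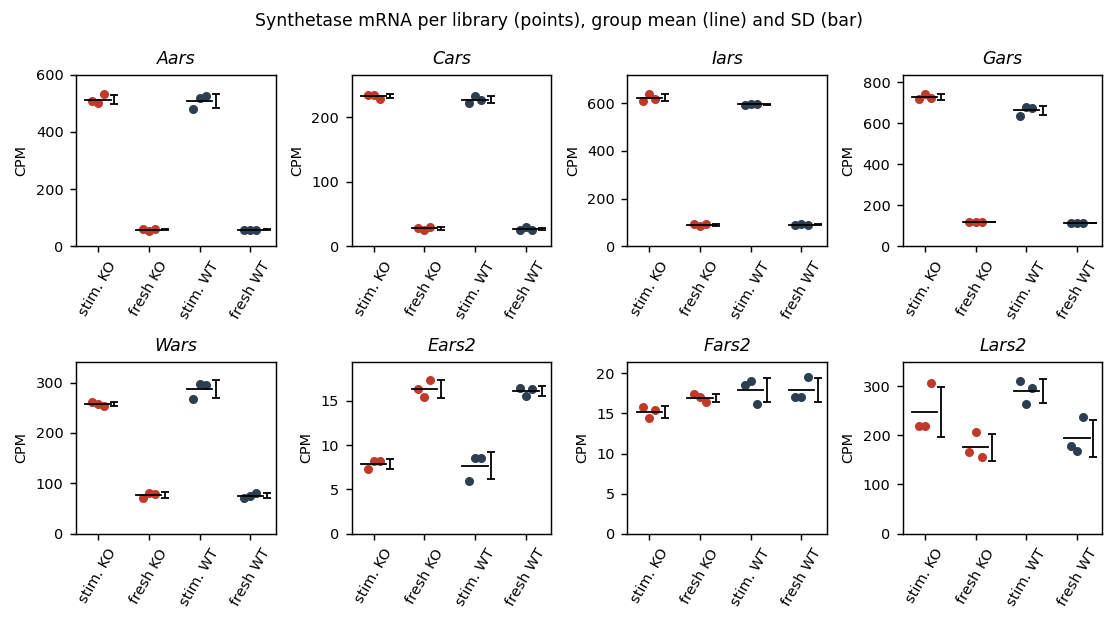
CPM of 8 synthetase genes in each library (points), with the group mean (line) and SD (bar, n = 3) and each vertical axis starting at 0; groups run stimulated KO, fresh KO, stimulated WT, fresh WT. Aars, Cars, Iars, Gars and Wars are several-fold higher in stimulated cells, Ears2 is lower, Fars2 differs little and the Lars2 libraries of a group spread widely.

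The other cytosolic genes descended in an unbroken order. Lars, for leucine, had a log2 fold change of 2.40 in WT, Tars (threonine) 2.32, Eprs (glutamate and proline, in 1 polypeptide) 2.20 and Mars (methionine) 2.07. Wars (tryptophan) followed at 1.93, Rars (arginine) at 1.75, Sars (serine) at 1.70 and both Hars (histidine) and Kars (lysine, also for both compartments) at 1.57. The subunits of the phenylalanine enzyme differed: the Farsb mRNA rose by 1.33 and the Farsa mRNA by 0.83. Under 2-fold were Farsa, Dars (aspartate, 0.80), Vars (valine, 0.72) and Qars (glutamine, 0.17). Each of these 20 genes had all its stimulated libraries above all its fresh libraries, in KO and in WT. Separation in either direction was common, with 10729 of the 12759 tested genes showing it in WT and 10792 in KO.

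Qars stood apart at the low end. It had 171, 167 and 175 CPM in stimulated KO against 148, 148 and 149 CPM in fresh KO, and 171, 165 and 171 CPM in stimulated WT against 147, 152 and 152 CPM in fresh WT (log2 fold change 0.17 ± 0.04 SE in WT, adjusted p = 0.000947). The groups did not overlap, but the difference was 1.12-fold.

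Because of these unequal changes the order of levels among genes differed between states. Divided by the length of the principal transcript, Gars led in stimulated cells, with 306 ± 6.09 CPM per kb in KO and 279 ± 9.41 CPM per kb in WT, ahead of Nars, Kars and Eprs. In fresh cells Vars led, with 86.3 ± 4.83 CPM per kb in KO and 78.1 ± 7.37 CPM per kb in WT, ahead of Kars, Qars and Dars (SD, n = 3 each). In fresh WT, Qars (53.9 ± 1.16 CPM per kb) and Dars (53.3 ± 1.21 CPM per kb) did not differ beyond their spread, and neither did Gars and Lars2 (48.3 ± 0.945 and 49.8 ± 9.63 CPM per kb). At the bottom in all 4 groups was Mars2, with 3.14 CPM per kb in stimulated KO, 1.65 in fresh KO, 2.98 in stimulated WT and 1.73 in fresh WT, where the annotated transcript is long at 11294 bases. These levels rest on transcript lengths from GENCODE, since the annotation the authors counted with is not given in the sources used here.

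Members of the multisynthetase complex were spread from the low end of the cytosolic range, at Qars, up to Iars. Aars and Cars, which are outside the complex, lay above them. Its 8 synthetase genes, Dars, Eprs, Iars, Kars, Lars, Mars, Qars and Rars, all rose, with log2 fold changes in WT between 0.17 (Qars) and 2.70 (Iars) and a median of 1.91. The 12 cytosolic genes outside it ranged from 0.72 (Vars) to 3.15 (Aars), with a median of 2.13. The 3 scaffold genes of the complex also rose. Eef1e1, which encodes AIMP3, averaged 122 ± 3.47 CPM in stimulated KO and 24.4 ± 2.78 CPM in fresh KO, and 109 ± 5.47 CPM in stimulated WT and 23.9 ± 2.29 CPM in fresh WT. The other two changed less in WT, Aimp2 by 1.53 and Aimp1 by 0.76 on the log2 scale.

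Among the 13 cytosolic promoters searched, the 5 genes with a C/EBP-ATF element had WT stimulation log2 fold changes of 2.32 to 3.15 (median 2.53), against 0.17 to 2.20 (median 1.45) for the 8 without it. The ranges did not overlap; motif and fold were set side by side as a description, with no test. Cars, Nars and Lars, also among the genes that rose most, were not searched.

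Of the mitochondrial genes, 3 rose more than 2-fold. Rars2, for arginine, had 51.7, 52 and 50.4 CPM in stimulated KO against 23.5, 21.8 and 23.8 CPM in fresh KO, and 54.6, 47.9 and 50 CPM in stimulated WT against 22.4, 18.6 and 21.9 CPM in fresh WT (log2 fold change 1.28 in WT). Yars2 (tyrosine) and Pars2 (proline) rose by 1.24 and 1.21. Smaller rises were seen for Mars2 (0.79), Nars2 (0.60), Lars2 (0.59), Tars2 (0.33) and Iars2 (0.19), which charge methionine, asparagine, leucine, threonine and isoleucine. Of these, Lars2 spread widely within groups, with a median coefficient of variation of 17.5% over the groups against 3.56% over all members and groups.

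Ears2, the mitochondrial glutamate enzyme, fell most. It had 7.28, 8.26 and 8.18 CPM in stimulated KO against 16.3, 15.4 and 17.4 CPM in fresh KO, and 5.91, 8.53 and 8.56 CPM in stimulated WT against 16.5, 15.5 and 16.3 CPM in fresh WT. The fold was 0.483 in KO and 0.479 in WT (log2 -1.06 ± 0.12 SE in WT, adjusted p = 7.61e-07), and no stimulated library reached a fresh one. Ears2 makes a glutamyl-tRNA that an amidotransferase then turns into glutaminyl-tRNA in mitochondria. Qrsl1 and Gatc, encoding subunits of that amidotransferase, rose in WT by 0.19 and 0.55 on the log2 scale.

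Vars2, for valine, had 41.9, 38 and 38 CPM in stimulated KO against 50.7, 52 and 55 CPM in fresh KO, and 40.4, 41.1 and 39 CPM in stimulated WT against 53.7, 52.9 and 55.1 CPM in fresh WT (log2 fold change -0.42 in both). Hars2, for histidine, had 36.4, 38.1 and 37.5 CPM in stimulated KO against 50.1, 45.2 and 45.8 CPM in fresh KO, and 38.2, 40.2 and 39.1 CPM in stimulated WT against 50, 46.6 and 43.1 CPM in fresh WT. Vars2 and Hars2 fell in both genotypes without overlap of the libraries, though most tested genes had such a separation in one direction or the other. Hars2 lies head to head with Hars on the opposite strand, and 4.56% of its exon bases are shared with it. Cars2, for cysteine, fell in WT by 0.17 on the log2 scale (adjusted p = 0.0306) and passed the test in 6 of 12 alternative fits; in KO its change of -0.05 did not pass. Aars2, Fars2, Sars2 and Wars2, for alanine, phenylalanine, serine and tryptophan, passed in neither genotype, with WT log2 fold changes of -0.11, 0.005, 0.15 and -0.09.

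**Figure D3:**
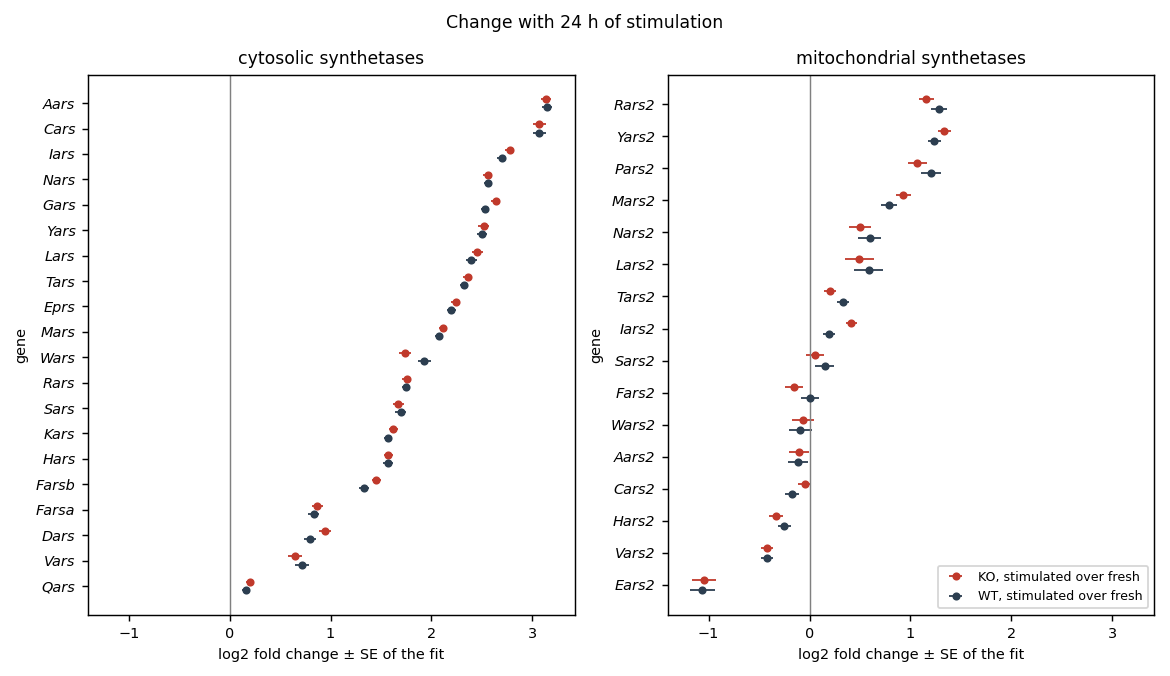
Stimulated over fresh log2 fold change of each synthetase gene with the standard error of the fit, in KO (red) and WT (dark), for cytosolic genes on the left and mitochondrial genes on the right on one scale. Cytosolic values run from 0.17 (Qars) to 3.15 (Aars) in WT and mitochondrial ones from -1.06 (Ears2) to 1.28 (Rars2), with KO and WT points close to each other in most rows.

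The list holds 13 pairs of a cytosolic and a mitochondrial gene whose symbols match, such as Aars and Aars2. Glutamate, proline and phenylalanine, whose cytosolic enzymes come from the joint gene Eprs or from separate subunit genes, are outside these pairs. In all 13 pairs the cytosolic gene had the higher stimulation log2 fold change, in WT by a median of 1.82 and in KO by a median of 1.91. Among these pairs the WT gap was widest for alanine, where Aars changed by 3.15 and Aars2 by -0.11, and for cysteine, where Cars changed by 3.07 and Cars2 by -0.17. It was narrowest for arginine, at 1.75 for Rars and 1.28 for Rars2. The pairwise differences were not tested.

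Marker levels of other cells also moved with stimulation. The summed level of 9 dendritic cell genes was 69.2 to 84.8 CPM in stimulated KO against 959 to 1412 CPM in fresh KO, and 78.6 to 93.2 CPM in stimulated WT against 1164 to 1434 CPM in fresh WT, with Clec9a and Siglech under 1 CPM in stimulated cells. These 9 include the MHC class II genes H2-Aa and H2-Ab1 and also Cd74, which are not particular to dendritic cells. For 5 B cell genes the sums were 18.9 to 25 CPM in stimulated KO against 107 to 162 CPM in fresh KO, and 22.6 to 27.2 CPM in stimulated WT against 106 to 123 CPM in fresh WT, with Pax5 under 1 CPM in stimulated cells. For 5 other myeloid genes they were at most 0.568 CPM in stimulated KO against 23.2 to 42.4 CPM in fresh KO, and at most 0.662 CPM in stimulated WT against 27 to 46.4 CPM in fresh WT. For 3 CD4 T cell genes they were 3.66 to 6.33 CPM in stimulated KO against 19.5 to 20.6 CPM in fresh KO, and 5.32 to 6.88 CPM in stimulated WT against 22.6 to 29.9 CPM in fresh WT, with Cd4 under 1 CPM in stimulated cells. For 3 NK cell genes they were at most 0.128 CPM in stimulated KO against 1.91 to 2.52 CPM in fresh KO, and at most 0.248 CPM in stimulated WT against 3.5 to 4.68 CPM in fresh WT. Fresh libraries thus had higher levels of these markers, and their part in the synthetase changes was not tested.

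Genes that act before and after tRNA charging mostly rose in WT with stimulation; the list counts that follow are for WT and stand beside 40.8% of all tested genes that rose and 41.4% that fell, with a median log2 fold change of -0.03. Of 20 tested genes of tRNA end processing and export, 18 rose and 1, Rpp21, fell (median 1.06). Xpot, the exporter that carries tRNA out of the nucleus, averaged 428 ± 5.15 CPM in stimulated KO and 69.3 ± 4.58 CPM in fresh KO, and 432 ± 15.8 CPM in stimulated WT and 72.4 ± 2.37 CPM in fresh WT (SD, n = 3 each). Pop1, a subunit of RNase P, changed by 2.65 and Trnt1, which adds the CCA end that is charged, by 1.31 on the log2 scale. Of 42 tested tRNA modification genes 36 rose and 1, Dus3l, fell (median 0.67), with Pus7 (a pseudouridine synthase) at 1.82, Nsun2 (a cytosine methyltransferase) at 1.57 and Qtrtd1 (a subunit of the queuosine-inserting enzyme) at 1.30.

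Elongation factors, which bring charged tRNA to the ribosome or move it on, were mixed. Of 9 genes 6 rose, with the smallest p-values for the mitochondrial factors Gfm1 (1.48), Tufm (1.27) and Tsfm (1.36), and the median was 0.70. Of the cytosolic factors, Eef1d (0.81) and Eef1g (0.70) rose as well, while Eef1a1 and Eef2 fell by 0.30 and 0.15 on the log2 scale in WT. In KO Eef1a1 fell by 0.25 and Eef2 was not called (0.005, adjusted p = 0.94). Eef1a1, which brings aminoacyl-tRNA to the cytosolic ribosome, averaged 12510 ± 567 CPM in stimulated WT and 15415 ± 579 CPM in fresh WT. Among 4 genes that remove mischarged or D-amino acids from tRNA 3 rose, led by Aarsd1 (1.18), with Dtd1 at 0.69 and Dtd2 at 0.64. Of 5 selenocysteine-tRNA genes 3 rose, led by Sephs2 (2.11), and Pstk, the kinase of that route, fell in WT (-0.37) and was not called in KO (-0.19, adjusted p = 0.112). Sephs1 (0.75) and Sepsecs (0.56) were the others that rose. Of 3 tested genes of the mitochondrial amidotransferase and initiator formylation 2 rose and Mtfmt did not pass (0.02). With so few genes, the counts of 3 of 5 and 2 of 3 are not far from the share of all tested genes that rose.

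In the list of uncharged-tRNA sensing and ATF4 genes, 11 of 13 rose and 1 fell in WT (median 1.36). Asns, asparagine synthetase, had the greatest change of the list: it averaged 253 ± 21.8 CPM in stimulated KO and 1.18 ± 0.279 CPM in fresh KO, and 244 ± 16.8 CPM in stimulated WT and 1.04 ± 0.49 CPM in fresh WT (log2 fold change 7.80 in WT). Trib3, a pseudokinase induced by ATF4, changed by 6.00 and Eif2s1, which encodes the alpha subunit of eIF2, by 1.62. Atf4 averaged 590 ± 25.4 CPM in stimulated KO and 207 ± 0.792 CPM in fresh KO, and 538 ± 28.1 CPM in stimulated WT and 214 ± 4.85 CPM in fresh WT. Ppp1r15a, whose product takes part in the dephosphorylation of eIF2 as a regulatory subunit, fell. It averaged 53.9 ± 4.67 CPM in stimulated KO against 391 ± 4.02 CPM in fresh KO. In WT it averaged 50.4 ± 10.0 CPM in stimulated cells against 433 ± 47.4 CPM in fresh cells.

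Of 11 amino acid transporter genes 10 rose and 1, Slc36a1, fell in WT (median 1.57). Slc7a5, the light chain of the large neutral amino acid transporter, averaged 1085 ± 21.7 CPM in stimulated KO and 67.1 ± 2.13 CPM in fresh KO, and 1027 ± 74.3 CPM in stimulated WT and 69.3 ± 3.39 CPM in fresh WT. Slc7a1, a cationic amino acid transporter, changed by 2.47 and Slc1a4, a transporter of alanine, serine and cysteine, by 6.94 on the log2 scale. The fresh level of Slc1a4 was low, at 0.617 ± 0.187 CPM in KO and 0.713 ± 0.214 CPM in WT.

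Loss of Otub1 made little difference to synthetase mRNA in stimulated cells. Of the 36 genes 1, Gars, was higher in stimulated KO than in stimulated WT and 0 were lower, where 5.08% of all tested genes were higher and 4.22% lower. The median log2 difference over the 36 was 0.04, and 33 of the 36 intervals (95%) lay within 0.3 on the log2 scale of no change. The lowest bound was -0.53, for Lars2, and the highest 0.31, for Ears2. Differences were above 0 for 17 of 20 cytosolic genes (median 0.06), 9 of 16 mitochondrial genes and 6219 of the 12759 tested genes. Summed cytosolic CPM was 7777 to 7950 in stimulated KO and 7457 to 7716 in stimulated WT, without overlap and with a ratio of means of 1.03. This small shift was not tested. The summed level of the 6 CD8 T cell genes, given above, was lower in stimulated KO than in stimulated WT without overlap; whether this bears on the synthetases was not tested.

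Gars averaged 729 ± 14.5 CPM in stimulated KO and 663 ± 22.4 CPM in stimulated WT (SD, n = 3 each). The difference was 0.14 on the log2 scale (interval 0.050 to 0.222), or 1.10-fold, with an adjusted p of 0.0463 in edgeR, and the lowest KO library, 718 CPM, lay above the highest WT library, 679 CPM. This call was close to the threshold. It held with other size factors, in DESeq2 and in limma-voom, and was lost without the count filter (adjusted p = 0.0812), with only the 2 groups fitted (0.132), with the Y-linked libraries left out (0.108) and without any 1 of the 6 stimulated libraries (0.0615 to 0.116).

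The next smallest p-values belonged to Wars and Fars2. Wars had 262, 257 and 254 CPM in stimulated KO and 267, 298 and 296 CPM in stimulated WT, so the groups did not overlap, and the difference of -0.16 on the log2 scale (interval -0.278 to -0.032) had an adjusted p of 0.113. It passed without stimulated WT replicate 1, the lowest of its group (-0.21, adjusted p = 0.0373). Fars2 had 15.8, 14.4 and 15.4 CPM in stimulated KO and 18.5, 19.1 and 16.2 CPM in stimulated WT, a difference of -0.24 (interval -0.423 to -0.048, adjusted p = 0.114). Its libraries did not overlap either, and 10.7% of its exon bases are shared with other genes on the opposite strand. In all, 9 of 36 synthetase genes (25%) had non-overlapping libraries, 5 higher and 4 lower in KO, against 27.4% of all tested genes.

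Lars2 was called lower in stimulated KO in 1 alternative, with the Y-linked libraries left out (-0.41, adjusted p = 0.0036). With all libraries its values were 219, 218 and 306 CPM in stimulated KO and 311, 263 and 297 CPM in stimulated WT, a difference of -0.23 with an adjusted p of 0.358. The KO library at 306 CPM, which is the one with Y-linked reads, lies within the WT range and the other two lie below it.

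In fresh cells 0 of the 36 genes passed the test between KO and WT, in edgeR, DESeq2 and limma-voom alike, and 2 had an unadjusted p under 0.05 in edgeR. Of all tested genes 0.98% were called higher and 0.219% lower at the adjusted threshold, and 1803 of the 12759 had an unadjusted p under 0.05 in edgeR. The median log2 difference of the 36 was 0.02, and the intervals reached from -0.45 (Lars2) to 0.31 (Rars2), with 33 of 36 inside 0.3 either way. Synthetase libraries of fresh KO and fresh WT failed to overlap for 3 genes (8.33%), Iars2, Gars and Aars2, against 20% of all tested genes.

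Iars2 had the smallest p in fresh cells. It had 88.6, 86.6 and 85.3 CPM in fresh KO and 98.3, 89.8 and 101 CPM in fresh WT, a difference of -0.15 on the log2 scale (interval -0.271 to -0.023, adjusted p = 0.262). Exon bases of Iars2 overlap genes on the opposite strand for 24.2% of their length. Vars had 346, 380 and 346 CPM in fresh KO and 358, 301 and 311 CPM in fresh WT (0.14, adjusted p = 0.352), and Rars2 had 23.5, 21.8 and 23.8 CPM in fresh KO and 22.4, 18.6 and 21.9 CPM in fresh WT (0.14, adjusted p = 0.468). Libraries of both genes overlapped between genotypes.

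**Figure D4:**
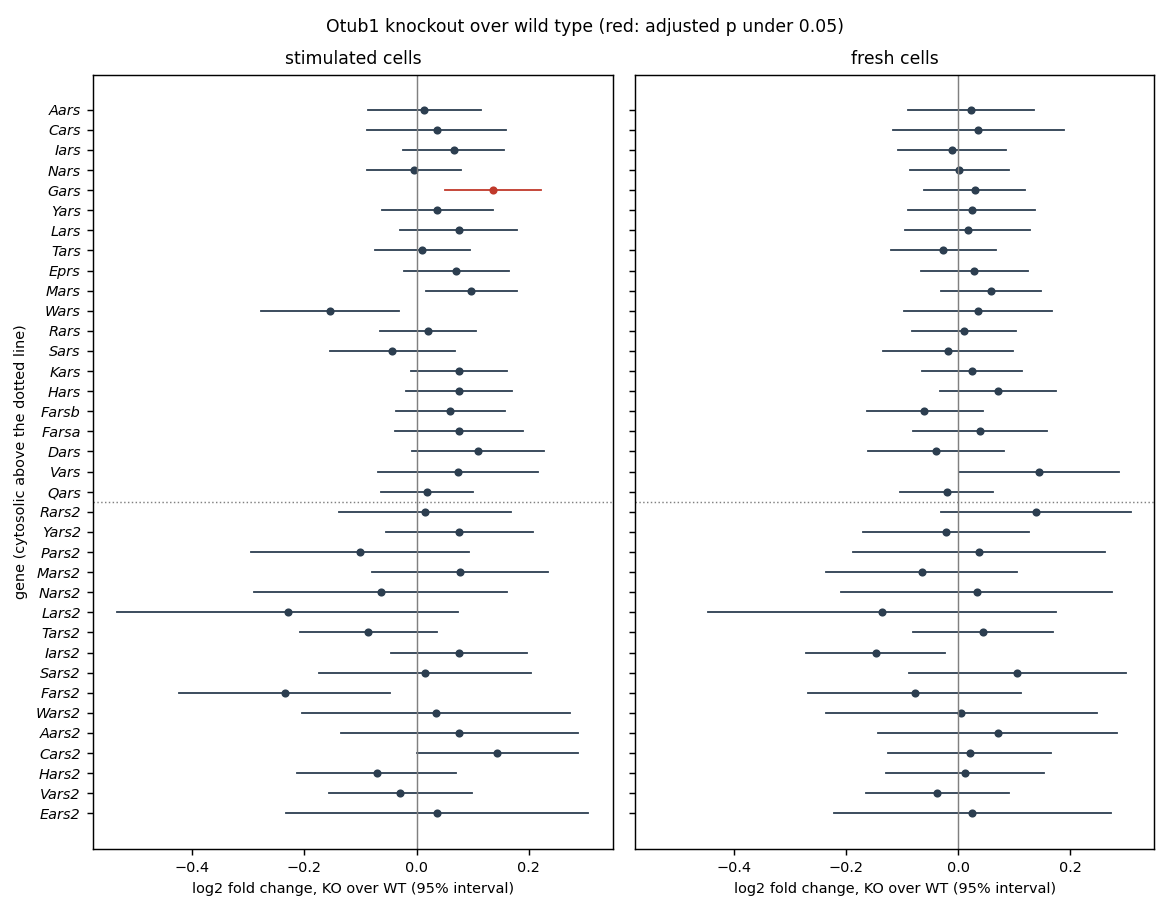
KO over WT log2 fold change of each synthetase gene with its 95% interval, in stimulated cells (left) and fresh cells (right), cytosolic genes above the dotted line. Gars in stimulated cells (0.14, interval 0.050 to 0.222) is the one value with an adjusted p under 0.05, and most intervals include 0.

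The stimulation response itself was compared between genotypes as an interaction, the KO log2 fold change minus the WT one. No synthetase passed in edgeR, DESeq2 or limma-voom (0 of 36), where 0.698% of all tested genes had a higher and 1.56% a lower response in KO. At an unadjusted p under 0.05 in edgeR were 2 of the 36 synthetases and 2086 of the 12759 tested genes. The intervals of the 36 reached from -0.53 (Lars2) to 0.40 (Iars2). Iars2 changed with stimulation by 0.42 in KO and 0.19 in WT, a difference of 0.22 (interval 0.050 to 0.396, adjusted p = 0.177). For Wars the changes were 1.74 in KO and 1.93 in WT, a difference of -0.19 (adjusted p = 0.276), and for Dars 0.95 in KO and 0.80 in WT, a difference of 0.15 (adjusted p = 0.370). Differences of these sizes are therefore not resolved with 3 libraries a group.

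Around the synthetases, genotype differences in stimulated cells reached the threshold in transporters alone among the 9 lists of tRNA and amino acid genes. Of the 11 transporter genes 1 was higher and 1 lower, where 5.08% of all tested genes were higher and 4.22% lower. With so few genes, these counts are not far from those shares. Both calls lay close to the threshold, and alternative fits are not given for the transporters. Slc1a5, a glutamine and neutral amino acid transporter, was lower, at 748 ± 33.5 CPM in stimulated KO and 851 ± 40.5 CPM in stimulated WT (log2 difference -0.19, adjusted p = 0.0342). Slc7a11, the cystine importer, was higher, at 27.8 ± 4.54 CPM in stimulated KO and 20.5 ± 3.44 CPM in stimulated WT (0.44, adjusted p = 0.0442); the third smallest p of that list was that of Slc43a1 (0.35, adjusted p = 0.128). In the sensing list 0 of 13 passed, with Ddit3 at -0.35 (adjusted p = 0.0903), Atf4 at 0.13 (0.0955) and Eif2s1 at 0.09 (0.235). Among the scaffolds 0 of 3 passed, with Aimp2 at 0.18 (0.135), Eef1e1 at 0.17 (0.164) and Aimp1 at 0.02 (0.861). In the modification list 0 of 42 passed, with Qtrtd1 at -0.13 (0.0853), Cdk5rap1 at -0.83 (0.118) and Nsun2 at 0.10 (0.164). The lists of end processing, delivery, trans-editing, selenocysteine and amidotransferase genes had 0 calls as well. In fresh cells 0 genes of any of the 9 lists passed, where 0.98% of all tested genes were higher and 0.219% lower. Below that threshold the delivery list was not flat. Of its 9 genes 5 had an unadjusted p under 0.05 in edgeR, against 1803 of the 12759 tested genes. Libraries did not overlap for 6 of the 9, against 20% of all tested genes. Eef1a1 averaged 13384 ± 425 CPM in fresh KO and 15415 ± 579 CPM in fresh WT, while 4 of the 9 differences were above 0.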

How the data were processed

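Each of the 12 libraries came as one table of read counts per gene, deposited without normalization. Per the submitters' processing notes the genome build was mm10 and the tools named were TopHat, TopHat2, HTSeq and DESeq2; for versions, annotation and strand setting, the sources used here give nothing. The deposited counts were whole numbers, and 5 summary lines per table (ambiguous, not unique and so on; 5.22 to 6.43% of the total) were left out.

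Genes were filtered by filterByExpr, scaled by TMM (factors 0.988 to 1.01) and fitted with edgeR 4.0.16 (R 4.3.3) over all 12 libraries, 1 coefficient per group, 8 residual degrees of freedom. A call is a Benjamini-Hochberg adjusted p under 0.05 over 12759 genes in glmQLFTest. SE is the log2 fold change over the square root of F, and intervals are 95%. The fit was tested on simulated counts. Alternatives used other size factors, DESeq2 1.42.0, limma-voom (limma 3.58.1), no count filter, only the 2 groups compared, and libraries left out. No library pair agreed within counting noise. Transcript lengths and exon overlaps came from GENCODE M21 (GRCm38), promoters from RefSeq.

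The members and lists were chosen with earlier results of these data known. Named by rule were the 6 highest and 3 lowest stimulation changes in WT, and for each genotype contrast its called members or the 3 smallest p-values; Qars, Rars2, Cars2 and Lars2 were added after their values were seen. From each tRNA and amino acid list, up to 3 genes by smallest p were named, with those that fell.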

Additional observations from a re-analysis of the deposited data

How the results depend on the processing

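The 20 cytosolic genes rose with stimulation in KO and in WT under each of the 12 alternatives run per genotype, and 8 mitochondrial genes rose under each; Ears2, Vars2 and Hars2 fell under each, and Cars2 in WT in 6 of 12. Of the values of members named by rule, 329 kept their side of the threshold, 9 lost the call (Gars) and 1 gained it (Wars). No value called in the main or the alternative fit turned direction. For values called in neither, direction was not compared. Among the members added later, values that were not called turned sign: Lars2 in fresh KO over WT (-0.14) reached 0.04, Lars2 in the interaction (-0.10) reached 0.04 and Cars2 in KO stimulation (-0.05) reached 0.01, each in fits that left out 1 library. The count of synthetases higher in stimulated KO than in stimulated WT was 1 (Gars) and became 0 with no count filter, with only the 2 groups compared and with the 3 libraries holding Y-linked reads left out; it was 0 to 0 over the fits that each left out 1 stimulated library. The count lower was 0 and became 1 with those 3 libraries left out (Lars2); it was 0 to 1 over the fits that each left out 1 library, with Wars called without stimulated WT replicate 1. Why these calls moved was not tested. The median of all genes in the WT stimulation contrast was -0.03 with TMM and -0.04 with other size factors. No paired analysis was possible because the replicate numbers follow the order of the records and tie no samples together. With 3 libraries a group, the unadjusted 95% intervals of the stimulated genotype differences had a median half-width of 0.12 on the log2 scale; the adjusted test asks for more, and Fars2 at -0.24 did not pass it.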

Other observations

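Lars2, which encodes the mitochondrial leucine enzyme, had the highest median coefficient of variation within groups among the synthetase genes, though not the highest in each group, and was picked out after its values were seen. In the groups that hold 1 library with Y-linked reads, that library had the highest Lars2 level. It had 306 CPM against 219 and 218 CPM in the other stimulated KO libraries, 207 CPM against 166 and 155 CPM in fresh KO, and 237 CPM against 178 and 167 CPM in fresh WT. Stimulated WT, with no such library, had 311, 263 and 297 CPM. With 1 such library a group no test was made.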
